A study of Mus musculus with 12 samples.

Results

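The collagen genes of the mouse were followed across 6 libraries of p53 knockout tumors, 3 libraries labelled p53 knockout (KO) mesenchymal stem cells (MSCs) and 3 libraries of p53 wild-type (WT) MSCs. Every row of the deposited table whose symbol reads Col, a number, the letter a and a number was taken, which gave 44 genes of 24421. By the structure their chains build, 11 are fibrillar, 9 network-forming, 6 beaded-filament, 9 fibril-associated (FACIT), 4 transmembrane and 2 multiplexin genes, and Col7a1 (anchoring fibrils), Col26a1 and Col28a1 stand apart. The tumors carried the genotype p53 knockout, were labelled as tumor cells and, per the series' design text, were sarcomas from bone or bone marrow. TRIzol was used to extract their RNA, and the protocols describe a sort for MSCs alone. The MSCs of both genotypes came from bone marrow and were sorted as cells positive for the leptin receptor and for CD140a (PDGFRA) that lacked CD45, Ter119 and CD31. All 12 libraries are labelled as freshly isolated. The series' title speaks of mesenchymal p53 loss, but the labels name no allele, no promoter or Cre driver behind it and no age of the mice, nor do they say whether each library is its own animal.

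Collagens are extracellular proteins in which 3 chains wind into a triple helix. Fibrillar collagens give bone, skin and tendon their tensile strength, and FACIT collagens coat those fibrils. Type IV collagen forms the sheet-like network of basement membranes, and type VI collagen forms beaded filaments close to cells. In bone marrow, LepR+ stromal cells make matrix and can give rise to osteoblasts, whose product is largely type I collagen. Cells secrete these chains after hydroxylation, glycosylation and folding in the endoplasmic reticulum, and enzymes outside the cell trim and cross-link them.

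Values below are the authors' variance-stabilized, batch-adjusted log2 values. On this scale a difference of 1 is a doubling for well-expressed genes and more than a doubling for low ones. They are not scaled by gene length, so levels are compared between libraries and never between genes. A gene with few reads sits at a floor. Exactly shared floor values divide the libraries into a first set (tumors 1 to 3, KO MSC 1 and WT MSC 1) and a second set (tumors 4 to 6, KO MSC 2 and 3, and WT MSC 2 and 3). A low gene can have different floors in the 2 sets, up to 3.56 apart for Col2a1. Of the 44 collagen genes, 19 were above the floor in every library, 25 were at it in at least 1 library and 9 in at least 6. Between 6 and 15 collagen genes were at the floor per tumor, and 0, 15 and 23 in the libraries labelled KO MSC 1, 2 and 3, against 1, 13 and 12 in WT MSC 1, 2 and 3. KO MSC 1 and WT MSC 1 also had the fewest floor values over all genes, 2632 and 3730, against 9251 to 12336 in the other libraries.

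The gene Trp53, which encodes p53, ranged between 6.79 and 9.16 in the tumors. It was at 10.49, 9.76 and 6.96 in the libraries labelled KO MSC 1, 2 and 3, against 9.96, 10.04 and 10.61 in WT MSC. KO MSC 1 thus lay within the WT MSC range, KO MSC 2 just below it and KO MSC 3 well below it. The words "labelled KO MSC" are therefore used throughout, although a deletion that leaves most of the transcript would not lower this value. Lepr was between 4.10 and 8.93 in tumors, at 11.63 to 14.12 in libraries labelled KO MSC and at 14.56 to 15.60 in WT MSC. The macrophage list (12 genes) averaged 10.67 to 13.87 in tumors, 5.27 to 6.59 in libraries labelled KO MSC and 5.20 to 6.68 in WT MSC. No member of either the macrophage or the endothelial list was at the floor in a tumor. The endothelial list (10 genes) averaged 7.23 to 9.46 in tumors, 5.83 to 6.32 in libraries labelled KO MSC and 5.76 to 6.41 in WT MSC. Of the 8 genes of the smooth muscle and pericyte list, 3 rose and 0 fell in tumors against KO MSC at a limma adjusted p under 0.05. Of all genes tested, 2.7% and 2.28% did so. Against WT MSC 5 of the 8 rose and 1 fell, where 10.4% and 10.9% of all genes did so. The MSC libraries carried transcripts of other marrow cells. The neutrophil list averaged 5.23 to 7.56 in tumors, 8.29 to 12.82 in libraries labelled KO MSC and 7.27 to 10.86 in WT MSC, and the erythroid list 7.35 to 10.94 in tumors, 10.45 to 12.42 in libraries labelled KO MSC and 9.98 to 12.75 in WT MSC. The part of all these cell types in the collagen values was not tested. In bulk samples, fewer cells of a type and less RNA per cell cannot be told apart. Replicate libraries may be technical, and p-values then measure only the spread between these libraries.

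**Figure D1:**
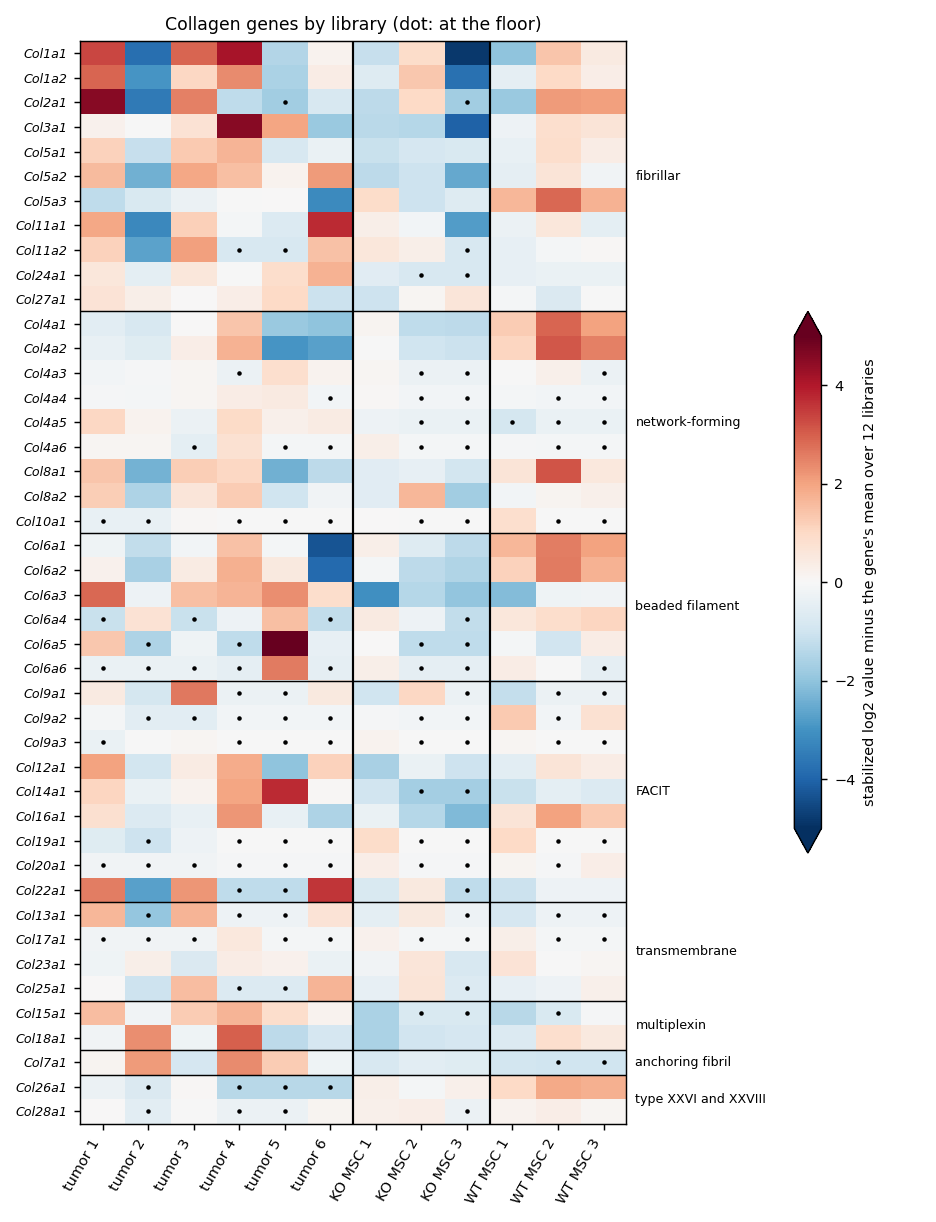
Stabilized log2 value of each of the 44 collagen genes (rows, by structural type) in 6 tumors, 3 libraries labelled KO MSC and 3 WT MSC libraries (columns), as the difference from the gene's own mean over 12 libraries. Red is above that mean and blue below, colours end at 5 on either side, and a dot marks a value at the floor. Col6a3 is red or near its mean in tumors and blue in the libraries labelled KO MSC, and Col4a1, Col4a2, Col6a1 and Col6a2 are red in WT MSC.

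The genes of type VI, IV, V and XV collagen carry most of the differences reported below, so the bases in front of some of them are printed here, from RefSeq (build GRCm38.p6, the same as mm10). Each run is read 5' to 3' on the gene's own strand and leaves out exonic bases. It ends at the RefSeq start, or where the first annotated exon of any transcript begins if that comes earlier. Capitals mark CCAAT or GGGCGG, the letters of the CCAAT box and the GC box, on either strand, and Col6a2 holds GGGCGG once, 175 bases before its start. Neither the 250 bases before Col6a3 nor the Col6a1 run hold these letters, and the Col6a1 run is only 126 bases long and ends 124 bases before the RefSeq start. All 3 genes of the common type VI trimer lie on minus strands, Col6a1 (chr10:76708792-76726168) and Col6a2 (chr10:76595762-76623630) as neighbours 85161 bases apart and Col6a3 on another chromosome (chr1:90765923-90843971). The runs before Col6a1, Col6a2 and Col6a3 cover chr10:76726169-76726294, chr10:76623631-76623880 and chr1:90843972-90844221.
Col6a1: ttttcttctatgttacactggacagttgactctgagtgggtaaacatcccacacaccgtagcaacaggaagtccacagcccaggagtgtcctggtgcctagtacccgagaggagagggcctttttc
Col6a2: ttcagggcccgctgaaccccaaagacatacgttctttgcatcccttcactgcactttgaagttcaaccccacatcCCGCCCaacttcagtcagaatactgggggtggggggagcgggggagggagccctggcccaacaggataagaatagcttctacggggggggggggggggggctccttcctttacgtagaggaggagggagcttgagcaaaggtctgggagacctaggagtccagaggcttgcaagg
Col6a3: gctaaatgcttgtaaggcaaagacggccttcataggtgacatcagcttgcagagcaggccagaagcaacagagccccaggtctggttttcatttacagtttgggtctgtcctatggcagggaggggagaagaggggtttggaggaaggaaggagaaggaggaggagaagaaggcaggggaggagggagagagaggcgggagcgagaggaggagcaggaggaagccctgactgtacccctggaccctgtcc

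The Col5a3 run (chr9:20815068-20815317, minus strand, before the gene at chr9:20770050-20815067) and the Col15a1 run (chr4:47207762-47208011, plus strand, before the RefSeq start at 47208012) are those of 2 genes that differed between tumors and WT MSC. Col5a3 holds CCAAT at 122 bases and GGGCGG at 63 and 41 bases before the annotated start, and Col15a1 holds neither.
Col5a3: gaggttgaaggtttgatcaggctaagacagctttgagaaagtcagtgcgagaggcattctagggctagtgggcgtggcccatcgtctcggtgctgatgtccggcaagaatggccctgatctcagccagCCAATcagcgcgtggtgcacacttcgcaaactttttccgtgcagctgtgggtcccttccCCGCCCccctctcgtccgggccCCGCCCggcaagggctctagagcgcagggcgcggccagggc
Col15a1: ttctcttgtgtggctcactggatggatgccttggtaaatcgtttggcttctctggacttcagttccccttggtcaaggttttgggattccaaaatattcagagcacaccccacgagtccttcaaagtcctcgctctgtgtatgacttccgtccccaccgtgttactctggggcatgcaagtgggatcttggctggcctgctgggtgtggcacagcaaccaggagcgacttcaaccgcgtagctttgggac
The type IV genes Col4a1 (chr8:11198423-11312826, minus strand) and Col4a2 (chr8:11312805-11449287, plus strand) stand head to head, and the 22 bases shared by their first exons (chr8:11312805-11312826) are given on the plus strand and hold GGGCGG once.
Col4a1 and Col4a2 shared bases: agtgcgcGGGCGGcgtctccaa

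In the 250 bases before the start, 35 of the 44 genes had a RefSeq entry (those without are Col1a1, Col2a1, Col4a3, Col5a2, Col9a3, Col12a1, Col14a1, Col22a1 and Col26a1). GGGCGG, searched on both strands, was found for 21 of the 35, against 32.7% of 32851 promoters of all genes. CCAAT was found for 13 of the 35 (33.8% of all promoters) and TATAAA, the letters of the TATA box, for 5 of the 35 (12.4% of all promoters). These matches describe letters and not binding sites.

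The first comparison set the libraries labelled KO MSC against WT MSC and asks what p53 loss does to the stromal cells themselves. Most collagen genes had lower means in the libraries labelled KO MSC, but none passed the test. The genes with the lowest p-values were Col4a2 (-2.93 ± 0.59, SE), Col4a1 (-2.87 ± 0.59), Col6a2 (-2.80 ± 0.57), Col6a1 (-2.62 ± 0.57) and Col16a1 (-2.66 ± 0.59), all lower in the libraries labelled KO MSC. Limma called 0 of the 44 and 0 of all 18948 genes tested (0%), with a lowest adjusted p of 0.551. At an unadjusted p under 0.05 it placed 15 of the 44 lower and 0 higher, where 6.07% of all genes tested were lower and 2.57% higher. Means were below WT MSC in 34 of the 44, against 52.2% of all genes, and the median difference was -0.50 for the collagen genes and -0.01 for all genes. In 14 collagen genes all libraries labelled KO MSC lay below all WT MSC libraries, and in 1 gene above, where 8.93% and 6.31% of all genes did so.

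Type IV and type VIII collagen, the network formers, had both well-expressed pairs with large differences and genes near the floor. Col4a1, which supplies most chains of the common basement membrane trimer, was at 10.87, 9.46 and 9.44 in the libraries labelled KO MSC, against 12.01, 13.64 and 12.73 in WT MSC. Col4a2, the other chain of that trimer, was at 9.76, 8.78 and 8.69 in the libraries labelled KO MSC, against 10.86, 12.87 and 12.28 in WT MSC. Neither gene's groups overlapped, and each is overlapped on the other strand by an annotated gene (Gm15418 and Gm15419) whose reads these libraries cannot separate. Col8a1, a chain of the type VIII network first known from endothelial cells, was at 10.18, 10.34 and 9.84 in the libraries labelled KO MSC, against 11.43, 13.92 and 11.31 in WT MSC. Its partner Col8a2 was at 6.08, 8.29 and 4.92 in the libraries labelled KO MSC, which enclosed the 6.49, 6.79 and 6.89 of WT MSC. Col4a3, Col4a4, Col4a5, Col4a6 and Col10a1 (the collagen of hypertrophic cartilage) stayed at or below 5.79 in all MSC libraries, with differences between -0.27 and 0.21.

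Beaded filaments are built of type VI collagen, in which Col6a1 and Col6a2 chains join one more chain, most often Col6a3. Col6a1 was at 12.44, 11.49 and 10.85 in the libraries labelled KO MSC, against 13.81, 14.69 and 14.15 in WT MSC. Col6a2 followed it, at 11.40, 10.19 and 9.99 in the libraries labelled KO MSC, against 12.63, 14.11 and 13.24 in WT MSC. Both pairs of groups were separate. Col6a3 was at 6.73, 8.37 and 7.84 in the libraries labelled KO MSC, against 7.64, 9.59 and 9.62 in WT MSC, with overlap and a difference of -1.31 ± 0.67. Col6a4, one of the alternatives to Col6a3, was at 6.38, 5.68 and 4.69 (the floor) in the libraries labelled KO MSC, against 6.50, 6.80 and 6.99 in WT MSC. Col6a4, Col6a1 and Col6a2 were the 3 of 6 beaded-filament genes lower at an unadjusted limma p under 0.05, where 6.07% of all genes were. Col6a5 and Col6a6, the remaining alternatives to Col6a3, differed by -0.63 ± 0.48 and -0.18 ± 0.27.

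Among the fibrillar genes, those of type I collagen, the main protein of bone matrix, varied widely between libraries of the same label. Col1a1 was at 13.13, 15.22 and 9.46 in the libraries labelled KO MSC, against 12.28, 15.69 and 14.73 in WT MSC, and Col1a2 was at 14.18, 16.19 and 11.09 in the libraries labelled KO MSC, against 14.39, 15.81 and 15.15 in WT MSC. KO MSC 3 was the low library in both. Type V collagen, which sits inside type I fibrils and limits their width, had lower means in all 3 chains, none of which passed the test. Col5a1 was at 10.85, 11.15 and 11.21 in the libraries labelled KO MSC, against 11.62, 12.85 and 12.36 in WT MSC. Col5a2 was at 9.61, 9.90 and 8.36 in the libraries labelled KO MSC, against 10.48, 11.58 and 10.77 in WT MSC. Col5a3 was at 9.67, 7.71 and 8.10 in the libraries labelled KO MSC, against 10.41, 11.62 and 10.51 in WT MSC. No type V gene's groups overlapped, and the differences were -1.21 ± 0.44, -1.65 ± 0.52 and -2.35 ± 0.60. Col3a1, the collagen of skin, vessels and hollow organs, was named after its values were seen: it was at 10.71, 10.62 and 7.99 in the libraries labelled KO MSC, against 11.77, 12.86 and 12.68 in WT MSC. These 4 genes of types III and V were the fibrillar genes lower at an unadjusted limma p under 0.05, 4 of 11, where 6.07% of all genes were. Col2a1, the cartilage collagen, was at 6.97, 9.26 and 6.53 (the floor) in the libraries labelled KO MSC, against 6.43, 10.39 and 10.34 in WT MSC. The remaining 4 (Col11a1, Col11a2, Col24a1 and Col27a1) differed by -0.80 to 0.17.

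Among the FACIT genes, Col16a1 was at 7.68, 6.59 and 5.81 in the libraries labelled KO MSC, against 8.69, 10.04 and 9.34 in WT MSC, with no overlap. Col12a1, whose product binds type I fibrils, was at 7.48, 8.75 and 8.05 in the libraries labelled KO MSC, against 8.57, 9.73 and 9.47 in WT MSC, and 1 KO MSC library reached into the WT MSC range. Both, with Col14a1 (-0.69 ± 0.29), were the 3 of 9 FACIT genes lower at an unadjusted limma p under 0.05, where 6.07% of all genes were. Col9a2 was at 5.01, 4.94 and 4.94 (the floor) in the libraries labelled KO MSC, against 6.39, 4.94 (the floor) and 5.85 in WT MSC. Col9a1, Col9a3, Col19a1, Col20a1 and Col22a1 differed by -0.06 to 0.51.

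Of the 2 multiplexins, which are collagens of the basement membrane zone with interrupted helices, Col18a1 (the source of endostatin) was at 6.55, 7.18 and 7.29 in the libraries labelled KO MSC, against 7.44, 8.98 and 8.63 in WT MSC. These groups did not overlap, and the annotated gene Slc19a1 overlaps Col18a1 on the other strand. Col15a1 was at 4.54, 5.37 and 5.37 (the floor) in the libraries labelled KO MSC, against 4.74, 5.37 (the floor) and 6.10 in WT MSC. Col26a1, a small collagen outside the main families, was at 6.10, 5.70 and 6.05 in the libraries labelled KO MSC, against 6.82, 7.72 and 7.57 in WT MSC, a difference of -1.42 ± 0.45 without overlap. Col28a1 was at 5.40, 5.50 and 4.87 (the floor) in the libraries labelled KO MSC, against 5.35, 5.47 and 5.26 in WT MSC. Col7a1, which anchors skin epithelium to the dermis, was the gene with higher values in all libraries labelled KO MSC, at 5.12, 5.40 and 5.34, against 5.01, 4.93 and 4.93 (the floor) in WT MSC. The transmembrane genes Col23a1 and Col25a1 overlapped between the groups. Col23a1 was at 5.80, 6.58 and 5.16 in the libraries labelled KO MSC, against 6.63, 5.93 and 6.06 in WT MSC, and Col25a1 was at 5.61, 6.66 and 5.32 (the floor) in the libraries labelled KO MSC, against 5.61, 5.74 and 6.26 in WT MSC. Col13a1 and Col17a1 differed by 0.37 ± 0.34 and -0.02 ± 0.15.

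The number of collagen genes lower at an unadjusted limma p under 0.05 depended on single libraries: it was 9 without WT MSC 2 and 9 without WT MSC 3, and 13 without KO MSC 1, 10 without KO MSC 2 and 12 without KO MSC 3. Without KO MSC 3 the median difference of the collagen genes was -0.22, and 27 of the 44 had a mean below WT MSC. KO MSC 3 as the sole KO library, chosen after the Trp53 values were seen, gave 11 collagen genes lower at a limma adjusted p under 0.05, where 16.7% of all genes were called in either direction. In that fit the spread comes from the WT MSC libraries alone, and KO MSC 3 is assumed to vary like them. Within the first set KO MSC 1 differed from WT MSC 1 by -1.36 for Col6a1 and -1.14 for Col4a1, and within the second set the differences were -3.25 and -3.73. Markers of LepR+ marrow stroma moved with these genes: 12 of 12 had lower means, 8 of them at an unadjusted limma p under 0.05, where 52.2% and 6.07% of all genes did so. Their mean was 11.93, 11.28 and 11.07 in the libraries labelled KO MSC, against 13.43, 12.75 and 12.29 in WT MSC, with none at the floor. The neutrophil list moved the other way, with 8 of 9 means higher (median difference 1.33) and 0 of 9 at an unadjusted limma p under 0.05. Its mean was 12.82, 9.75 and 8.29 in the libraries labelled KO MSC, against 10.86, 9.46 and 7.27 in WT MSC. The part of these markers in the collagen differences was not tested.

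**Figure D2:**
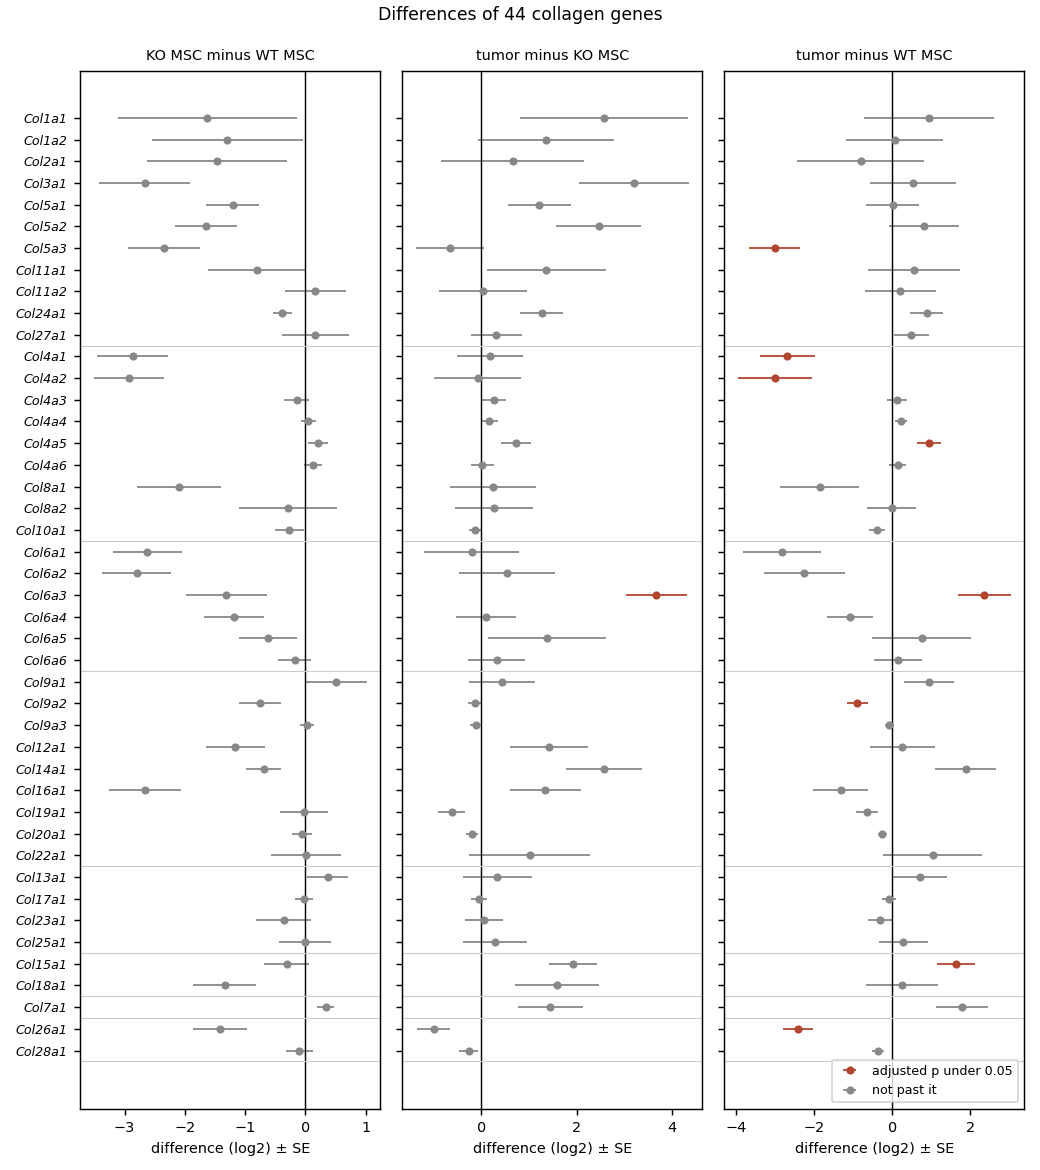
Differences of the 44 collagen genes (rows, in the order of types used for the heat map) in the 3 comparisons, as stabilized log2 values with SE from limma; red marks an adjusted p under 0.05. Most points lie below 0 in KO MSC minus WT MSC with none in red, Col6a3 is red in tumor minus KO MSC, and 8 genes are red in tumor minus WT MSC.

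The second comparison set the tumors against the libraries labelled KO MSC, the sorted cells of the same genotype label. Col6a3 rose in tumors, by 3.67 ± 0.64 (limma adjusted p = 0.0101), and no other collagen gene passed the test. Of the 44 genes, limma called 1 higher and 0 lower, where it called 2.7% of all genes higher and 2.28% lower (4.98% in all). At an unadjusted p under 0.05, 7 were higher and 1 lower, against 13.6% and 12.8% of all genes. Means were below the libraries labelled KO MSC in 11 of the 44, against 47.3% of all genes, and the median difference was 0.32 for the collagen genes and 0.04 for all genes. In 4 collagen genes every tumor lay above every library labelled KO MSC and in 0 below, where 8% and 5.39% of all genes did so. The share of collagen genes called was near that among all genes.

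Col6a3 was at 9.56, 11.42 and 12.67 in the lowest, median and highest tumor, against the 6.73, 8.37 and 7.84 of the libraries labelled KO MSC. All 6 tumors stood above all 3 of these libraries, and the same direction held within each set, by 4.46 in the first and 3.34 in the second. The call was lost without KO MSC 1 (adjusted p = 0.0929), with the second set only (adjusted p = 0.159) and with KO MSC 3 as the sole KO library (adjusted p = 0.136), a fit whose spread comes from the tumors alone. The direction was the same in all 3. A fit with a replicate block also lost the call for Col6a3, but it rests on tumors 1 to 3, since no MSC library is numbered 4 to 6. Its partners did not pass the test. Col6a1 was at 7.81, 11.97 and 13.60 in the lowest, median and highest tumor and differed from the libraries labelled KO MSC by -0.20 ± 0.99. Col6a2 was at 7.60, 11.82 and 13.29 in the lowest, median and highest tumor and differed by 0.54 ± 1.01. In both genes the tumors lay on both sides of the libraries labelled KO MSC.

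Col15a1 stood just outside the threshold in this comparison. It was at 5.94, 7.21 and 7.82 in the lowest, median and highest tumor, above the floor in all 6, while 2 of the 3 libraries labelled KO MSC were at the floor. The difference was 1.93 ± 0.50 (limma adjusted p = 0.0503) and held within both sets, at 2.47 and 1.67. It also lies over Gm12426, an annotated gene on the other strand. The other genes with no overlap were Col14a1 (2.57 ± 0.80, adjusted p = 0.0834) and Col24a1 (1.26 ± 0.45, adjusted p = 0.118), both named after their values were seen. Of the fibrillar genes, Col3a1 (3.20 ± 1.15, adjusted p = 0.126) and Col5a2 (2.46 ± 0.89, adjusted p = 0.127) had large differences with overlap. Col1a1 (2.57 ± 1.76) and Col1a2 (1.36 ± 1.43) differed by less than 2 SE. Col26a1, at 4.41, 4.75 and 5.87 in the lowest, median and highest tumor, was the lowest by difference (-0.99 ± 0.34, adjusted p = 0.113), and 4 of the 6 tumors were at the floor.

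**Figure D3:**
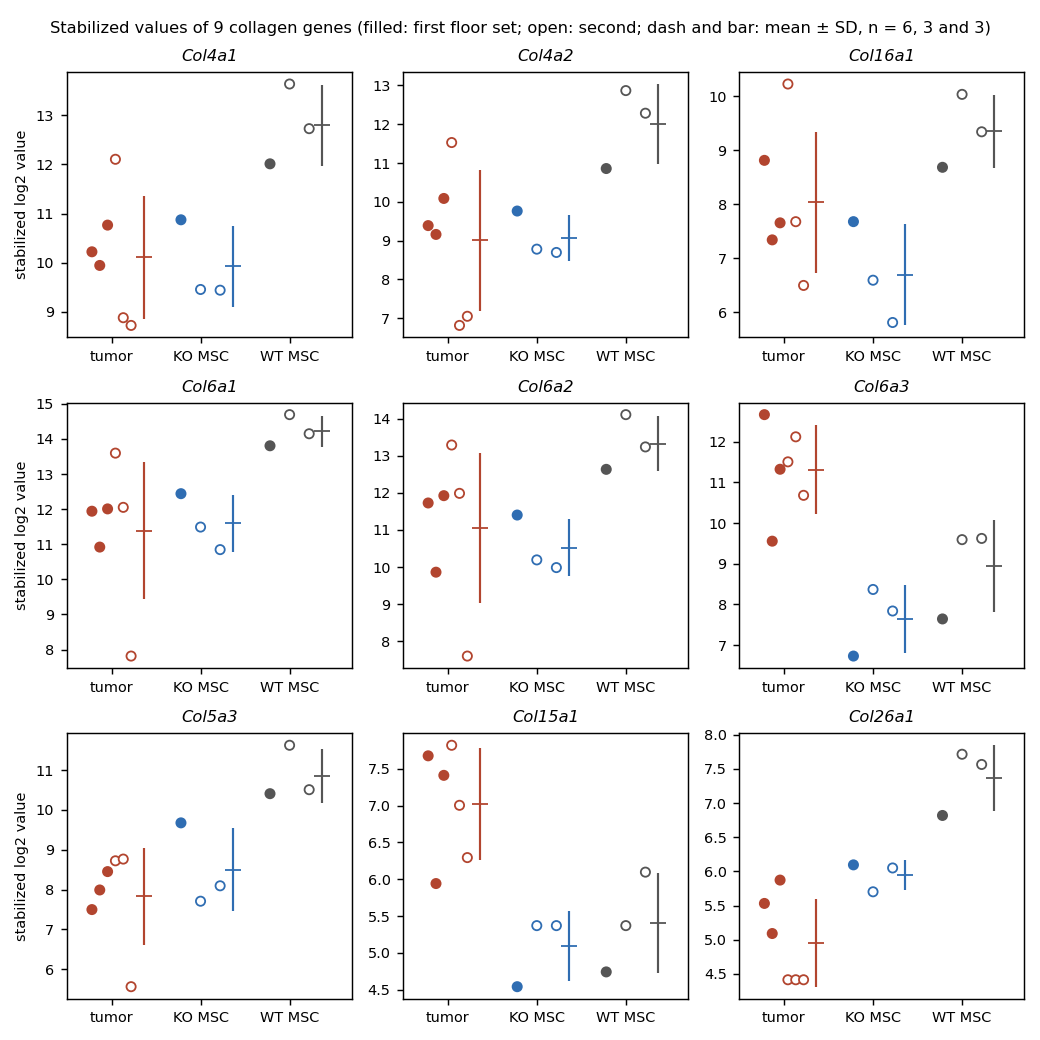
Stabilized log2 values of 9 collagen genes in tumors (n = 6), libraries labelled KO MSC (n = 3) and WT MSC (n = 3), each point a library (filled for the first floor set, open for the second), with the mean and SD beside them. Col6a3 and Col15a1 are highest in tumors, and Col4a1, Col4a2, Col6a1, Col6a2, Col5a3 and Col26a1 have their highest group mean in WT MSC.

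The third comparison set the tumors against WT MSC and shares its tumors with the second comparison and its WT MSC libraries with the first. Col6a3, Col15a1 and Col4a5 rose in tumors, and Col26a1, Col5a3, Col4a1, Col4a2 and Col9a2 fell. Limma called 3 of the 44 genes higher and 5 lower, where it called 10.4% of all genes higher and 10.9% lower (21.3% in all). At an unadjusted p under 0.05, 5 were higher and 9 lower, against 16.4% and 20.8% of all genes. Every tumor lay above every WT MSC library in 3 collagen genes and below in 3, where 12.9% and 12.3% of all genes did so. Means were below WT MSC in 19 of the 44, against 53.6% of all genes, and the median difference was 0.13 for the collagen genes and -0.06 for all genes. These shares of collagen genes called were near those of all genes tested. With the second set only, limma called Col26a1 and Col2a1, both lower, and the other 7 calls were lost, among them Col5a3 (adjusted p = 0.243), Col4a1 (adjusted p = 0.259) and Col6a3 (adjusted p = 0.150).

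Col26a1 (chr5:136741759-136883209, minus strand) had the lowest adjusted p. It fell by 2.41 ± 0.39 on the log2 scale (adjusted p = 0.00248) and stayed called when any 1 of the 9 libraries was left out, and all 6 tumors stood below all WT MSC libraries. Tumors 2, 4, 5 and 6 were at their floors, which lie 0.68 apart between the sets, so the size of the difference is compressed. Within the sets it was -1.32 in the first and -3.23 in the second.

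Col5a3 fell by 3.01 ± 0.66 on the log2 scale (adjusted p = 0.00936). It was at 5.57, 8.22 and 8.77 in the lowest, median and highest tumor, below all WT MSC libraries, and the call was lost without WT MSC 2 (adjusted p = 0.0539). The other type V chains did not pass the test, with differences of 0.01 ± 0.68 for Col5a1 and 0.81 ± 0.89 for Col5a2. The difference was -2.43 within the first set and -3.38 within the second.

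The basement membrane pair fell together in the mean. Col4a1 was at 8.73, 10.08 and 12.10 in the lowest, median and highest tumor and fell by 2.68 ± 0.70 on the log2 scale (adjusted p = 0.0209). Col4a2 was at 6.81, 9.27 and 11.53 in the lowest, median and highest tumor and fell too, with a difference of -3.0 ± 0.95 (adjusted p = 0.0463). Tumor 4 was the exception that reached the WT MSC range in both genes. The Col4a1 call was lost without WT MSC 2 (adjusted p = 0.0997) and without WT MSC 3 (adjusted p = 0.0684). The Col4a2 call held in 1 of the 9 fits that left out a library, the one without tumor 4 (adjusted p between 0.0119 and 0.155 over the 9). Endothelium, which makes much type IV collagen, was marked more strongly in tumors than in MSCs, as given above, and the part of endothelium in these values was not tested. Col4a5, a chain of other type IV trimers, was at 5.07, 5.69 and 6.38 in the lowest, median and highest tumor, while all 3 WT MSC libraries were at the floor, so no fold is given. Its adjusted p was 0.0458, and the call held in 1 of the 9 fits that left out a library, the one without tumor 3 (adjusted p between 0.0238 and 0.208 over the 9).

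Col6a3 rose by 2.36 ± 0.67 (adjusted p = 0.0309), with overlap because tumor 2 (9.56) lay just below WT MSC 2 (9.59) and WT MSC 3 (9.62). The call was lost without tumor 3 or 5 or any 1 of the WT MSC libraries (adjusted p up to 0.166), and the difference was 3.54 within the first set and 1.83 within the second. Its partners lay on the other side of 0 without passing the test, Col6a1 at -2.83 ± 0.99 (adjusted p = 0.0666) and Col6a2 at -2.26 ± 1.04 (adjusted p = 0.138). In Col6a1 all 6 tumors were below all WT MSC libraries. Col15a1 rose by 1.62 ± 0.49 (adjusted p = 0.0372), with overlap at tumor 2, and its call was lost without tumor 1, 3 or 5 or WT MSC 1 or 2 (adjusted p up to 0.180). Col9a2, a cartilage FACIT chain, fell by 0.90 ± 0.27 on the log2 scale (adjusted p = 0.0356). It was at the floor in 5 tumors and in WT MSC 2, at 5.00 in tumor 1 and at 6.39 and 5.85 in WT MSC 1 and 3. The size of its difference is therefore not read as a fold. Its call was lost without tumor 2, 3, 5 or 6 or WT MSC 1 or 3 (adjusted p up to 0.160). The 36 genes that did not pass included Col7a1 and Col14a1, in which all 6 tumors lay above all WT MSC libraries (1.78 ± 0.67 and 1.88 ± 0.78, adjusted p = 0.0822 and 0.111).

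Col2a1 illustrates how the sets enter these values, and was at 4.74, 7.26 and 12.85 in the lowest, median and highest tumor. The mean of tumors 1 to 3 minus WT MSC 1 was 3.03, and the mean of tumors 4 to 6 minus that of WT MSC 2 and 3 was -3.34. Over all libraries the difference was -0.81 ± 1.62 and was not called, while with the second set only Col2a1 was called lower.

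The chains of one collagen can also be compared within a library, where a difference does not depend on that library's scaling. Since values are not per length, the size of such a difference has no meaning, and only its change between libraries is read here. In bulk RNA the 2 chains may come from different cells and no protein was measured, so the trimer itself was not tested. Col6a3 minus Col6a1 was 0.73, -1.36, -0.68, -2.09, 0.07 and 2.87 in tumors 1 to 6. It was -5.71, -3.12 and -3.01 in the libraries labelled KO MSC and -6.16, -5.10 and -4.53 in WT MSC. Every tumor thus lay above every MSC library of either label in this difference, which was not tested. This pair was not among those planned and holds the gene already called higher in tumors, so its separation is no further support. Col6a1 minus Col6a2 stayed narrow, at a mean of 0.32 ± 0.37 in tumors (SD, n = 6), 1.07 ± 0.22 in the libraries labelled KO MSC and 0.89 ± 0.29 in WT MSC (SD, n = 3 each), although each chain alone had an SD near 2 in tumors (1.95 and 2.02).

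Col4a1 minus Col4a2 was 0.84, 0.79, 0.68, 0.58, 2.07 and 1.68 in tumors 1 to 6, against 1.11, 0.68 and 0.75 in the libraries labelled KO MSC and 1.15, 0.77 and 0.44 in WT MSC. Tumors 5 and 6, the lowest tumors for both genes, were those outside the MSC range. Col1a1 minus Col1a2 averaged 0.00 ± 1.08 in tumors (SD, n = 6), -1.22 ± 0.36 in the libraries labelled KO MSC and -0.89 ± 1.07 in WT MSC (SD, n = 3 each), and was highest in tumors 3 and 4 at 1.35 and 1.21. Col5a1 minus Col5a2 ran between -1.42 in tumor 6 and 2.31 in tumor 2, with 1.78 ± 0.93 in the libraries labelled KO MSC and 1.34 ± 0.24 in WT MSC (SD, n = 3 each). Col8a1 minus Col8a2 averaged 3.66 ± 0.78 in tumors (SD, n = 6), 3.69 ± 1.48 in the libraries labelled KO MSC and 5.50 ± 1.44 in WT MSC (SD, n = 3 each), and the groups overlapped.

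**Figure D4:**
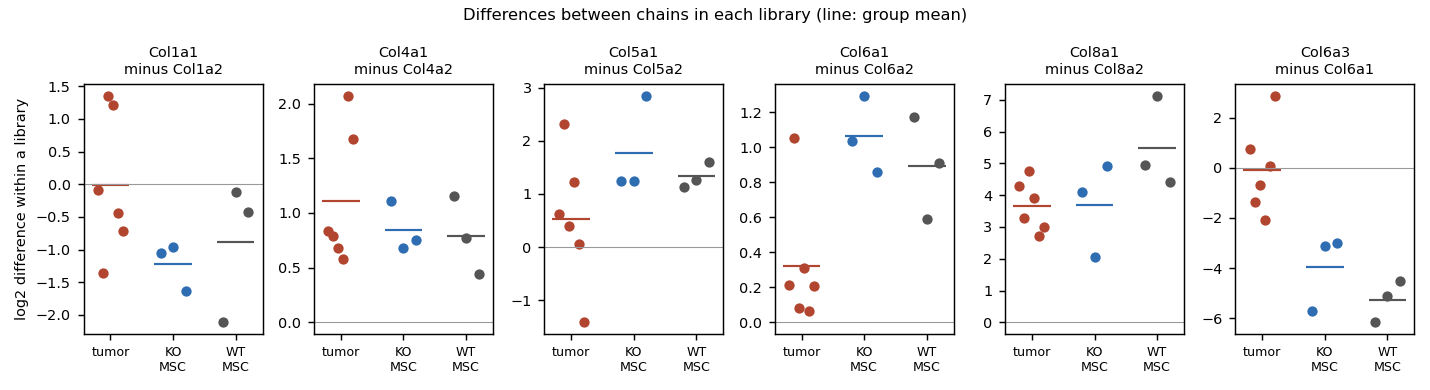
Difference between 2 chains of one collagen within each library (stabilized log2 scale) for 6 pairs, with tumors left of the libraries labelled KO MSC and WT MSC; a point is a library and the line the group mean. Col6a3 minus Col6a1, which was not among the planned pairs, is the pair in which all 6 tumors, at -2.09 to 2.87, lie above all MSC libraries, at -6.16 to -3.01.

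The collagen genes varied widely among the 6 tumors, and this was not tested, since the labels give no subgroups. Their median SD over tumors was 1.21, against 0.53 for all genes tested, and 15 of the 44 (34.1%) ranged over more than 4 units, against 3.83% of all genes. Both measures span the 2 sets and so include the shift of floors for low genes, up to 3.56 for Col2a1. The genes were not matched for level. Because floors differ between the sets, tumors are ordered here within each set and among genes that range over more than 1 there. In the first set tumor 2 was the lowest in 22 of 27 collagen genes (81.5%, against 46.3% of all genes), and tumor 1 the highest in 15 of 27 (55.6%, against 43.3%). In the second set tumor 4 was the highest in 15 of 29 (51.7%, against 44.5%).

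Type I collagen showed this order. Col1a1 was at 17.63, 10.52 and 17.20 in tumors 1 to 3 and at 18.41, 12.82 and 14.47 in tumors 4 to 6. Col1a2 was at 17.72, 11.88 and 15.85 in tumors 1 to 3 and at 17.20, 13.25 and 15.18 in tumors 4 to 6. Tumors 2 and 5 were the low ones of their sets in both genes. Col3a1, like Col1a1, was highest in tumor 4, at 16.58, against 10.20 to 14.00 in the other tumors, but its lowest value was in tumor 6.

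The cartilage collagens Col2a1 and Col11a1 and the FACIT gene Col22a1, whose product is found at tissue junctions, had another order. Col2a1 was at 12.85, 4.74 and 10.82 in tumors 1 to 3 and at 7.03, 6.53 (the floor) and 7.50 in tumors 4 to 6. Col11a1, a chain that nucleates thin fibrils, was at 10.41, 5.26 and 9.66 in tumors 1 to 3 and at 8.40, 7.81 and 12.20 in tumors 4 to 6. Col22a1 was at 9.75, 4.47 and 9.38 in tumors 1 to 3, at the floor of 5.94 in tumors 4 and 5, and at 10.76 in tumor 6. In 4 of the 44 genes (Col11a1, Col11a2, Col22a1 and Col25a1), tumors 1 and 3 exceeded tumor 2, and tumor 6 exceeded tumors 4 and 5, by more than 1 (9.09%, against 1.2% of all genes). This order was read from these same values, Col11a1 and Col22a1 among them, so the shares describe it and do not test it. Col25a1 was at 6.02, 4.99 and 7.56 in tumors 1 to 3 and at 7.71 in tumor 6, with tumors 4 and 5 at the floor of 5.32.

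The mean of the osteoblast list (10 genes) had the same order, at 12.85, 7.68 and 11.36 in tumors 1 to 3 and 7.72, 8.46 and 11.47 in tumors 4 to 6, with 0 to 2 members at the floor. Of its members, Sp7, Alpl, Bglap and Ibsp each had that order. Runx2 had it without the margin of more than 1, at 10.37 in tumor 6 against 9.46 in tumor 4. Spp1 did not have it, and was highest in tumor 2 of the first set, at 17.42 against 15.57 and 15.61 in tumors 1 and 3. Values of its other members, Bglap2, Dmp1, Phex and Sost, are not given here. The chondrocyte list (9 genes) averaged 5.29 to 6.36 over the tumors, with 2 to 6 members at the floor, and its members differed in order. Matn3, a cartilage matrix gene, was at 7.09, 4.29 (the floor) and 7.60 in tumors 1 to 3 and at 6.58, 5.21 (the floor) and 8.50 in tumors 4 to 6. Comp, also of cartilage matrix, was highest in tumor 1 at 9.48 and at the floor in tumor 2 (4.53) and in tumors 5 and 6 (4.97). Sox9, a transcription factor of cartilage, was highest in tumor 4 at 11.18 and lowest in tumor 6 at 6.58. These 3 were named after their values were seen. Acan, a main proteoglycan of cartilage, was at 6.10, 5.52 and 5.22 in tumors 1 to 3 and at 5.17 (the floor) in tumors 4 to 6. The skeletal muscle list was highest in tumor 4 at 12.71, against 5.18 to 9.73 in the other tumors. The part of these cell types in the order of the collagen genes was not tested.

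**Figure D5:**
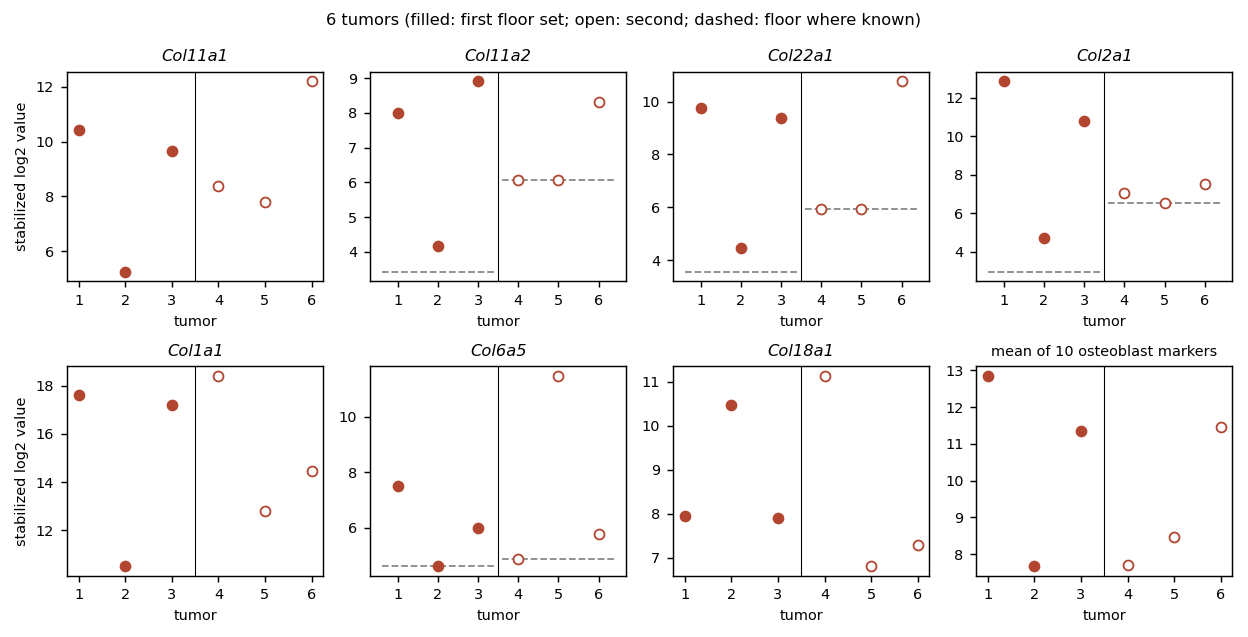
Stabilized log2 values of 7 collagen genes and the mean of 10 osteoblast markers in tumors 1 to 6, filled for the first floor set and open for the second, with the floor dashed where it is known. Col11a1, Col11a2, Col22a1 and the osteoblast mean are high in tumors 1, 3 and 6 within their sets, Col6a5 is high in tumor 5, and Col18a1 is high in tumors 2 and 4.

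Other genes stood out in single tumors. Col6a5 was at 7.52, 4.62 (the floor) and 5.97 in tumors 1 to 3 and at 4.89 (the floor), 11.47 and 5.77 in tumors 4 to 6, so tumor 5 was far above the rest. Col14a1, also highest there, was at 10.23 in tumor 5 and at 6.17 to 8.48 in the other tumors. Col18a1 was at 7.96, 10.46 and 7.90 in tumors 1 to 3 and at 11.13, 6.81 and 7.30 in tumors 4 to 6. Col7a1, with 6.07, 8.08 and 5.09 in tumors 1 to 3 and 8.29, 7.19 and 5.72 in tumors 4 to 6, was also highest in tumors 2 and 4 of their sets. Tumor 6 was the lowest for Col5a3 at 5.57, for Col6a1 at 7.81 and for Col6a2 at 7.60, while its Col6a3 was 10.68.

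The remaining named members also spread over the tumors. Col5a1 was at 10.83, 12.39 and 13.66 and Col5a2 at 8.52, 12.48 and 13.07 in the lowest, median and highest tumor. Col8a1 was at 8.36, 10.64 and 12.17 and Col8a2 at 5.11, 6.85 and 7.89 in the lowest, median and highest tumor. Tumor 2 was the lowest for Col5a1, Col5a2 and Col8a2, and tumor 5 for Col8a1. For the FACIT genes, Col12a1 was at 7.07, 9.87 and 11.11 and Col16a1 at 6.50, 7.67 and 10.23 in the lowest, median and highest tumor. Col23a1 stayed between 5.23 and 6.35 and Col28a1 between 4.63 and 5.27.

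Genes that process, bind or cleave collagen were followed in 6 lists with 53 genes tested. In tumors against the libraries labelled KO MSC, limma called 2 of the 53 higher and 0 lower, where it called 2.7% and 2.28% of all genes: Pcolce2, an enhancer of procollagen cleavage (3.43 ± 0.81, adjusted p = 0.0345), and Creb3l1, a transcription factor of the secretory pathway (2.87 ± 0.70, adjusted p = 0.0391). In tumors against WT MSC it called 3 of the 53 higher and 10 lower, where it called 10.4% and 10.9% of all genes. Of 14 genes of chain hydroxylation and glycosylation, 0 rose and 2 fell, the prolyl 3-hydroxylase genes P3h2 (-4.39 ± 0.55, adjusted p = 0.00120) and P3h3 (-2.08 ± 0.34, adjusted p = 0.00273). Of 6 cross-linking genes 3 fell, the transglutaminase gene Tgm2 (-2.91 ± 0.75) and the lysyl oxidase genes Lox (-1.95 ± 0.60) and Loxl3 (-1.82 ± 0.56).

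Of 10 collagen receptor genes 1 rose and 4 fell against WT MSC, where 10.4% and 10.9% of all genes did so. The leukocyte receptor gene Lair1 rose by 2.93 ± 0.69 (adjusted p = 0.0134), beside the macrophage markers given above, whose part was not tested. The integrin genes Itga1 (-3.72 ± 0.36, adjusted p = 0.000710) and Itga11 (-2.50 ± 0.62, adjusted p = 0.0170) fell. Of 8 folding and export genes Ppib, a prolyl isomerase, rose (1.47 ± 0.39, adjusted p = 0.0234) and 0 fell. Of 8 propeptide cleavage genes Pcolce2 rose (3.62 ± 0.79, adjusted p = 0.00943) and the protease gene Adamts2 fell (-3.86 ± 0.76, adjusted p = 0.00583). None of the 7 collagen-cleaving proteases passed in either comparison, with 3 and 2 higher and 0 lower at an unadjusted limma p under 0.05 against KO MSC and WT MSC. At that p, 13.6% and 16.4% of all genes were higher and 12.8% and 20.8% lower. In the libraries labelled KO MSC against WT MSC limma called 0 of the 53, with 23 lower and 0 higher at an unadjusted p under 0.05 and 46 with a lower mean, where 6.07%, 2.57% and 52.2% of all genes did so. The cross-linking list had 5 of its 6 genes in that count of 23, with a median difference of -1.84.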

How the data were processed

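RNA was sequenced in bulk from 12 mouse libraries (6 tumors, 3 labelled KO MSC, 3 WT MSC). Per the labels' protocols, cDNA was made with SMART-Seq v4 and sheared, and the library kit keeps no strand information. The submitters' processing notes list the genome build mm10, Cuffdiff, Cufflinks 2.2.1 and TopHat2 2.0.13, with no role or order, and further steps were not given in the sources used here. Deposited by the authors were log2 values titled as variance-stabilized and batch-adjusted (24421 genes), and these were analysed as they stand. The authors' other deposited table, titled as normalized counts, holds a score, 100 times the stabilized value divided by 1 factor per library (100% of 18949 genes, tolerance 0.01). It served as the filter on low genes and as an alternative. No counts could be recovered, so the depth is unknown and no counting interval is given. The test that had been planned allowed for logarithms, so no pseudocount was added.

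In R 4.3.3, limma 3.58.1 (lmFit, eBayes with a trend, two-sided) was run on the libraries of the 2 groups compared, with Benjamini-Hochberg adjustment over the 18948 genes that varied and a threshold of 0.05. The fit was tested on simulated data. Its p-values ignore that values had already been batch-adjusted. Floors shared exactly (tolerance 1e-05) gave the 2 sets of libraries, and the labels name no batch. Replicate numbers did not pair the libraries. Values per library are given for members past the threshold, the 2 members of each type with the highest mean, the 6 with the largest SD among tumors (of those reaching 8.97 in a tumor), and paired chains. Of the other lists, up to 3 genes each with the smallest adjusted p could be named. The members, lists and rules were chosen with earlier results of these data known. Alternatives were other filters, scalings, the score table, a set term, the second set alone, a joint fit, library weights, no trend, a replicate block and leaving out each library. Gene positions came from the mm10 annotation in GENCODE, and sequences from RefSeq.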

Additional observations from a re-analysis of the deposited data

Results flagged for a closer look

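Of the 44 collagen genes, each with 6 tumors, 3 had a tumor set apart from the others by a gap beyond Dixon's critical value. Chance gives about 1 gene in 20 for values without ties, a rate that does not apply here, since 5, 5 and 4 of the 6 tumors were at a floor in these genes. Col6a6, an alternative to Col6a3 in type VI collagen, was at 7.73 in tumor 5, while the other 5 tumors were at the floor. Col17a1, a transmembrane collagen of epithelial attachment, was at 5.42 in tumor 4, with the other 5 tumors at the floor. Col9a3, a cartilage FACIT chain, was at 4.58 in tumor 1, which is the floor of the first set, while the floor of the second set is 4.92.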

How the results depend on the processing

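All 704 recomputed differences of 37 gene results kept their direction. Of these, 598 stayed on the same side of the threshold, 62 were no longer called and 44 were newly called. The 37 were the collagen results with an unadjusted limma p under 0.05 in the main fits. Most of the recomputed fits reuse the same libraries, so a kept direction was largely fixed in advance. The number of collagen genes called in KO MSC against WT MSC was 0, and became 1 with the second set only, 15 with library weights (12.9% of all genes called) and 11 with KO MSC 3 as the sole KO library (added after the Trp53 values were seen; 16.7% of all genes called, with the spread taken from WT MSC alone). The number lower there at an unadjusted p under 0.05, 15, became 9 with all 3 groups in 1 fit and 9 to 17 without each library in turn. In tumors against KO MSC 1 gene was called. That became 2 with the stricter filter, the other deposited table, quantile scaling, upper-quartile centring, the set term and no trend, 3 with all 3 groups, 6 with library weights, 0 with the second set only and with KO MSC 3 alone, and 0 to 3 without each library in turn (0 without KO MSC 1 and 3 without tumor 2). In tumors against WT MSC 8 were called, 5 with no filter, with the stricter filter, with the set term and with no trend, 2 with the second set only, 16 with library weights and 2 to 9 without each library in turn. Library weights did not converge in 2 of the 3 comparisons. The replicate numbers did not pair the libraries (correlations of same-numbered deviations between -0.319 and 0.238), and a replicate block gave 0, 0 and 3 called collagen genes in the 3 comparisons, with an adjusted p of 0.180 for Col6a3 in tumors against KO MSC. The median difference of the collagen genes moved between -1.47 and -0.19, between 0.13 and 1.21, and between -0.14 and 0.25 in the same order of comparisons. Where a count moved, the cause was not tested, except that leaving out libraries or using 1 set also lowers the number of samples. Values near the floor limit the 25 genes that reach it.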
